A study of Mus musculus with 8 samples.

Results

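The 33 genes described here encode enzymes, electron carriers and membrane proteins of mitochondrial and peroxisomal fatty acid oxidation. They were taken by symbol from a fixed list of acyl-CoA dehydrogenases, hydratases, thiolases, electron transfer flavoproteins and peroxisomal oxidation genes, and all 33 were found among the 54091 gene rows. Transcripts were measured by RNA-seq in white quadriceps, where fast glycolytic fibres prevail, and the donors were male mice of 11 to 14 weeks after a fast of 14 h. The 4 floxed controls (replicates 1 to 4) are labelled Loxp/Loxp, and the 4 knockouts (replicates 5 to 8) are labelled CKM Cre with loss of Acot2 in muscle. Cre under the muscle creatine kinase promoter acts in muscle fibres, so other cells of the tissue keep Acot2, and mice with Cre but no floxed allele were not analysed here. Each library's title carries a different mouse number, and no batch is named. The title of the series places Acot2, which hydrolyses acyl-CoA esters in the mitochondrial matrix, in beta-oxidation of glycolytic muscle, and the comparison asks how the transcripts of that pathway differ in its absence after a fast.

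Mitochondrial beta-oxidation shortens an acyl-CoA by repeating a cycle of dehydrogenation, hydration, a further dehydrogenation and thiolytic cleavage, with separate enzymes for long, medium and short chains. Electrons from the first step pass through the electron transfer flavoprotein and its dehydrogenase to ubiquinone. Peroxisomes run a related cycle on very long, branched and dicarboxylic chains, with an oxidase in place of the first dehydrogenase, and pass shortened products to mitochondria. In muscle both sets are more abundant in oxidative than in glycolytic fibres, and many of these genes are known targets of the fatty acid receptors of the PPAR family and of the estrogen-related receptors.

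Reads on genes, recovered from the deposited values, numbered 28659628 to 40977874 per library. All 7 defining muscle fibre markers were detected, and the 3 hepatocyte markers summed to at most 4.4 normalized counts in a library. Normalized counts of Acot2 itself were 1675, 3927, 2492 and 1530 (floxed controls, in replicate order here and below) and 412.8, 311.5, 600.5 and 543.4 (knockouts), so every knockout lay below every floxed control, as in 1.62% of all tested genes. Its difference was -2.30 on the log2 scale (exact permutation p = 0.0286, two-sided, the smallest that 4 against 4 can give; adjusted p = 0.087 by limma). All values are the authors' counts divided by their size factors (normalized counts) or log2 of that count plus 1. Differences are knockout minus floxed control on this log2 scale, each with its standard error (SE), and come from limma run over 13141 genes with a mean of at least 10 normalized counts. Of the 33 genes, 32 passed that filter. Acaa1b, a peroxisomal thiolase gene nearly identical to Acaa1a, did not, with 0 to 3.56 normalized counts in floxed controls and 0 to 4.51 in knockouts.

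The acyl-CoA dehydrogenases of decreasing chain length carry the chain-length comparison, and Ehhadh spanned 4.52-fold over the libraries, more than any other gene but Hacl1, so the 250 bases before their annotated starts are shown. Sequences are from RefSeq (GRCm38.p6), on the strand of the gene and 5′ to 3′, and capitals mark the nuclear receptor half-site AGGTCA on either strand (TGACCT when on the other), found in those of Acadvl and Acadm. The windows are chr11:70015429-70015678 for Acadvl (very long chains), chr1:66863310-66863559 for Acadl (long chains), chr3:153944644-153944893 for Acadm (medium chains), chr5:115119347-115119596 for Acads (short chains) and chr16:21787835-21788084 for Ehhadh (peroxisomal bifunctional enzyme), all of minus-strand genes.
Acadvl: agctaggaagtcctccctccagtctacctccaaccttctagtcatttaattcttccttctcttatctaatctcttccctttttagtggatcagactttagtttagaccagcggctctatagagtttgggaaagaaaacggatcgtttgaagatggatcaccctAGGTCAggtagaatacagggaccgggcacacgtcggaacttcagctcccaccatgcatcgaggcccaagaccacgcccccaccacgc
Acadl: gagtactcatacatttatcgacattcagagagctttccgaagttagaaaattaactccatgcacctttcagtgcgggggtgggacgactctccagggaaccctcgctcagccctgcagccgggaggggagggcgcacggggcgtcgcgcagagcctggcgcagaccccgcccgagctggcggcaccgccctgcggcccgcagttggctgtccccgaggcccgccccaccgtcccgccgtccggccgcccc
Acadm: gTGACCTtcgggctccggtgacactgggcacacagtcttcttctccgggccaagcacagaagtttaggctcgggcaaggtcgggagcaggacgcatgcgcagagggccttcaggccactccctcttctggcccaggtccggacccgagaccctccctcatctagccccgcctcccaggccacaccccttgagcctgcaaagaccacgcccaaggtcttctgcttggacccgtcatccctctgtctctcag
Acads: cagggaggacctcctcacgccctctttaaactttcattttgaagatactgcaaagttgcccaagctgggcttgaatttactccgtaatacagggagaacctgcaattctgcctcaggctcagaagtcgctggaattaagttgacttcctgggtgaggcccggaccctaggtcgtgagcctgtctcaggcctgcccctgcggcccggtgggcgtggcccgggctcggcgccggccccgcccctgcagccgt
Ehhadh: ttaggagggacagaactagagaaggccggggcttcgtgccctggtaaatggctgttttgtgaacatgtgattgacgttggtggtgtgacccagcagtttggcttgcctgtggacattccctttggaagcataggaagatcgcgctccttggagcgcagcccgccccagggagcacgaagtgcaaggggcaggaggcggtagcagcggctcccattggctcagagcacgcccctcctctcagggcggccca

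A promoter window of 300 bases (250 before and 50 after the start) was listed for 27 of the 33 genes. Both strands were searched for the estrogen-related receptor element (TNA followed by AGGTCA), the PPAR-type direct repeat of AGGTCA with 1 base between the copies, and the half-site AGGTCA, which lies inside both. Neither longer element was in a window of these genes. As only 1.28% of all 32851 windows held the first and 0.0396% the second, their absence from 27 genes cannot show a depletion. The half-site was in the windows of 5 genes (Acadm, Acadvl, Echs1, Phyh and Scp2), or 18.5%, beside 18.1% of all genes with a window. The windows had a median GC content of 59.5%, beside 52.7% over all windows.

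No gene of the set was called between genotypes, although most had a positive difference. By limma, 0 of the 32 tested genes passed an adjusted p of 0.05, as did 0 of all 13141 tested genes (0%), and adjusted p ranged from 0.746 to 0.983. At an unadjusted p under 0.05 there were 3 (Acads, Acad9 and Decr1), beside 6.16% of all tested genes; all 3 were positive and 0 negative, beside 2.47% and 3.7%. The difference was positive in 30 of the 32 and negative in Acad10 and Hacl1, beside 50.6% positive over all tested genes; with every library scaled to the same total, Acad10 turned positive and the count was 31. The median difference was 0.21, beside 0.0031 over all tested genes. These genes were taken up with earlier results of the same data known, so the count describes them and is not a test.

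Floxed control 4 stood at the low end and knockout 7 at the high end of many of these genes. Floxed control 4 had the lowest of the 8 values in 22 of the 32 genes, beside 15.2% of all tested genes, and knockout 7 the highest in 23, beside 13.3%. Both held together in 18 genes, beside 3.74% of all tested genes. Within the groups, floxed control 4 was the lowest control in 23 (28.1% of all tested genes), knockout 7 the highest knockout in 23 (22.4%) and knockout 5 the lowest knockout in 23 (30%). At least 3 knockouts lay above every floxed control in 12 of the 32, beside 10.7%. For most genes the direction did not depend on either library alone, but the median fell from 0.21. Of the 32 differences, 30 were positive without floxed control 4 (median 0.122) and 28 without knockout 7 (median 0.127). With either left out Echs1 turned negative and Acad10 positive. Ehhadh (-0.015) and Acox3 (-0.0036) turned negative without knockout 7. Without floxed control 4 and knockout 5 together, 31 were positive (median 0.236). Without floxed control 4 and knockout 7 together, 18 were positive (median 0.0083). That last pair was picked after seeing that it held the extremes of these genes. Its removal had to lower the differences of the 18 genes in which it held both extremes. The values are therefore a description and no test. Without knockout 5 alone 30 were positive and the median was 0.294; without knockout 5, 15 of the 32 genes had an unadjusted p under 0.05, beside 16.7% of all tested genes, and none passed after adjustment.

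**Figure D1:**
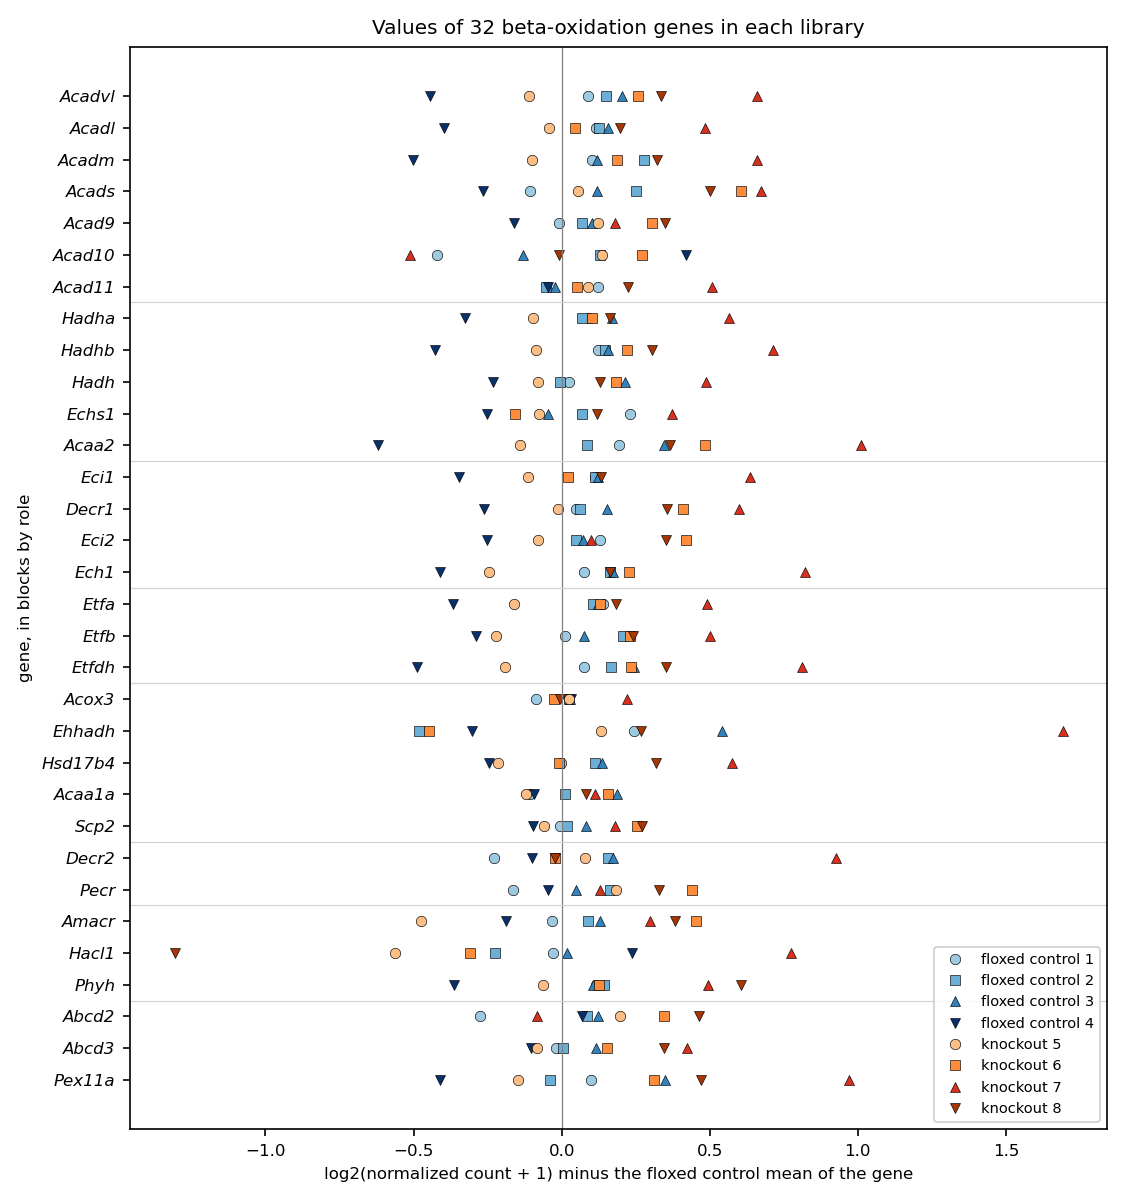
Each point is 1 library: log2(normalized count + 1) minus the mean of the 4 floxed controls for that gene, for the 32 tested genes in blocks by role. Floxed control 4 lies at the left in 22 genes and knockout 7 at the right in 23.

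Titin (Ttn), the giant sarcomere protein, took 14.9% of normalized counts in floxed control 4, the highest share, and 8.34% in knockout 7, the lowest. The share was 11.8% to 12.8% in floxed controls 1 to 3, 13.9% in knockout 5, and 8.67% and 9.22% in knockouts 6 and 8, so it ran high where the oxidation genes were low. Knockout 7 also stood apart in fibre markers. Myh2, the myosin gene of fast oxidative fibres, had 18567, 4421, 18357 and 4678 normalized counts in floxed controls and 7087, 4005, 59055 and 4102 in knockouts. The 5 fast glycolytic fibre markers summed to 2345440 normalized counts in knockout 7, the lowest sum of all libraries. The sums were 3270430 to 4275720 in floxed controls, of which floxed control 4 had the highest. Knockout 8 (3166320) was also below every floxed control, while knockouts 5 (3883950) and 6 (3776240) lay within their range. Most of each sum was Myh4. Of these markers 4 had negative differences, 1 of them (Mylk2) at an unadjusted p under 0.05. The 7 slow fibre markers all had positive differences (1 at an unadjusted p under 0.05), with sums of 1248 to 1890 in floxed controls and 1300 to 2531 in knockouts, most of it Atp2a2. The 5 macrophage markers were also all positive (4 at an unadjusted p under 0.05), with sums of 851 to 1532 and 1495 to 2535. Of the 6 endothelial markers 4 were positive, and 3 (Pecam1, Vwf and Cldn5) were so at an unadjusted p under 0.05, with list sums of 5156 to 6401 and 5752 to 7548. Of the brown adipocyte markers, whose cells are rich in beta-oxidation enzymes, Ucp1 was at 0 in every library but knockout 7, where it had 1.86 normalized counts. Cidea, the other marker of that list, had 50.4, 31.3, 51.1 and 16.0 normalized counts in floxed controls and 54.1, 21.8, 78.2 and 42.4 in knockouts. Cidea too was lowest in floxed control 4 and highest in knockout 7. The 6 general adipocyte markers went otherwise, with the lowest sum in floxed control 1 and the highest in floxed control 3. Their sums were 219, 919, 2138 and 911 in floxed controls and 1468, 673, 1859 and 539 in knockouts. The part of titin share, fibre type and other cells in the values of the oxidation genes was not tested, and in bulk tissue fewer cells of a type and less RNA per cell cannot be told apart.

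The acyl-CoA dehydrogenases catalyse the first step of each mitochondrial cycle, and 6 of the 7 had positive differences (median 0.24). Acads, the short-chain enzyme, had 1012, 1296, 1183 and 907 normalized counts in floxed controls and 1132, 1656, 1736 and 1541 in knockouts. Knockouts 6, 7 and 8 lay above every floxed control, while knockout 5 lay within the floxed control range. The difference for Acads was 0.46 (SE 0.149, 95% interval 0.13 to 0.79, adjusted p = 0.746 by limma), the largest of the 32, and lay between 0.37 and 0.59 with each library left out in turn. Acads lies on the minus strand of chromosome 5.

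Acad9, known both as a very-long-chain dehydrogenase and as an assembly factor of respiratory complex I, was the only gene of the 32 in which the groups did not overlap. It had 720, 761, 780 and 649 normalized counts in floxed controls and 791, 898, 823 and 925 in knockouts. Every knockout lay above every floxed control, which held for 1.13% of all tested genes (2.75% did not overlap in either direction). The difference was 0.24 (SE 0.0932, adjusted p = 0.746 by limma).

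Acadvl, the membrane-bound enzyme for very long chains, had 8029, 8384, 8703 and 5543 normalized counts in floxed controls and 6990, 9030, 11912 and 9532 in knockouts. Knockouts 6, 7 and 8 were above every floxed control, and knockout 5 was below 3 of the 4. The difference of 0.29 (SE 0.174, adjusted p = 0.751) was 0.14 without floxed control 4 and 0.16 without knockout 7. Of the exon length of Acadvl, 42.9% overlaps exons of Dvl2 on the other strand, and the strand setting of the counting is not given in the sources used here.

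Acadl, for long chains, had 6513, 6562, 6696 and 4562 normalized counts in floxed controls and 5834, 6199, 8402 and 6884 in knockouts, a difference of 0.17 (SE 0.145). Acadm, for medium chains, had 5455, 6164, 5521 and 3589 in floxed controls and 4737, 5784, 8022 and 6351 in knockouts, a difference of 0.27 (SE 0.184). In both genes only knockouts 7 and 8 exceeded every floxed control. Acad11 differed by 0.22 (SE 0.105), with 1971 to 2229 normalized counts in floxed controls and 2119 to 2911 in knockouts. Acad10 was a low gene, with 40.7 to 73.8 and 38.2 to 66.4, and a difference of -0.028 (SE 0.251).

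The mitochondrial trifunctional protein performs the later steps on long chains, its alpha subunit (Hadha) as hydratase and hydroxyacyl-CoA dehydrogenase and its beta subunit (Hadhb) as thiolase. The 2 genes lie head to head on chromosome 5, with 272 bases between their RefSeq starts at 30154980 and 30155253. In GENCODE they lie closer, with Hadha reaching to 30155162 and Hadhb beginning at 30155248. Hadha had 8803, 8654, 9284 and 6581 normalized counts in floxed controls and 7730, 8874, 12208 and 9253 in knockouts, a difference of 0.18 (SE 0.147). Hadhb had 5998, 6092, 6138 and 4093 in floxed controls and 5184, 6417, 9028 and 6802 in knockouts, a difference of 0.29 (SE 0.174). Floxed control 4 was lowest and knockout 7 highest in both, and their levels within a library kept close: log2 Hadhb minus log2 Hadha was between -0.69 and -0.51 in floxed controls and between -0.58 and -0.44 in knockouts.

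The enzymes that take over on medium and short chains differed more from each other. Acaa2, the mitochondrial thiolase, had 2394, 2220, 2659 and 1361 normalized counts in floxed controls and 1897, 2930, 4225 and 2698 in knockouts. Its 3.1-fold span from floxed control 4 to knockout 7 was the widest of the mitochondrial genes, and its difference of 0.43 (SE 0.245, adjusted p = 0.748) was 0.22 without the first and 0.24 without the second. Hadh, the hydroxyacyl-CoA dehydrogenase, differed by 0.18 (SE 0.127), with 2427 to 3305 and 2698 to 3996 normalized counts. Echs1, the short-chain enoyl-CoA hydratase, had the smallest positive difference of the mitochondrial genes, 0.064 (SE 0.132), with 1786 to 2495 and 1906 to 2753, and turned negative when either floxed control 4 (-0.020) or knockout 7 (-0.038) was left out.

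By chain length, the groups had similar differences. The 5 long-chain genes (Acadvl, Acadl, Acad9, Hadha and Hadhb) had a median of 0.24 and the 5 medium- and short-chain genes (Acadm, Acads, Hadh, Echs1 and Acaa2) one of 0.27, all 10 positive. Mean log2 values of the long-chain genes were 12.16, 12.19, 12.23 and 11.72 in floxed controls and 12.03, 12.26, 12.60 and 12.35 in knockouts. Those of the medium- and short-chain genes were 11.28, 11.33, 11.34 and 10.82 in floxed controls and 11.13, 11.45, 11.83 and 11.48 in knockouts. The libraries took the same order in both classes, from floxed control 4 to knockout 7. Within a library the second mean minus the first was -0.88 ± 0.020 (SD, n = 4) for floxed controls, against -0.84 ± 0.064 (SD, n = 4) for knockouts, so the shift between classes, 0.046, was smaller than the spread between knockouts. Without floxed control 4 and knockout 7, picked as the extremes of these genes, the medians were 0.0043 with 3 of 5 positive and -0.00057 with 2 of 5 positive.

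**Figure D2:**
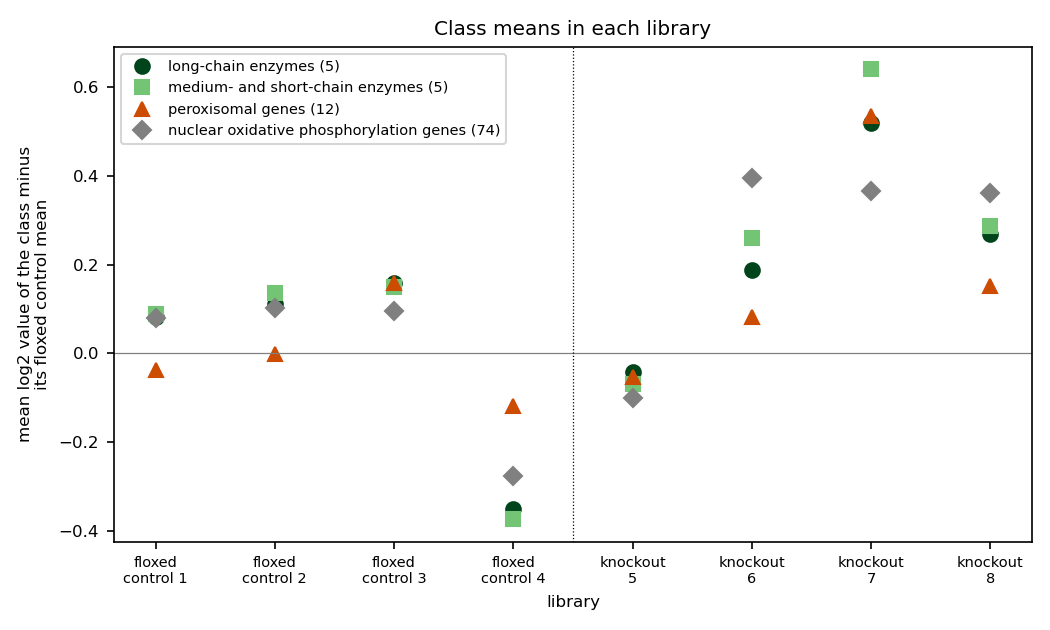
Each symbol is the mean log2 value of a class in 1 library minus its mean over the floxed controls, for long-chain (5), medium- and short-chain (5) and peroxisomal (12) genes and for 74 nuclear genes of oxidative phosphorylation. Floxed control 4 is lowest in the 4 classes, and the oxidation classes peak in knockout 7 while the respiratory class is at about the same height in knockouts 6, 7 and 8.

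Auxiliary enzymes bring unsaturated chains into the cycle, and all 4 had positive differences. Decr1, the mitochondrial dienoyl-CoA reductase, had 2549, 2569, 2737 and 2052 normalized counts in floxed controls and 2439, 3271, 3732 and 3153 in knockouts. Knockouts 6, 7 and 8 lay above every floxed control. The difference for Decr1 was 0.34 (SE 0.133, adjusted p = 0.746). Eci2, an isomerase found in mitochondria and peroxisomes, departed from the usual order, with 2647, 2502, 2543 and 2033 in floxed controls and 2287, 3234, 2590 and 3090 in knockouts, so that knockouts 6 and 8, not 7, were highest. Eci1, the mitochondrial isomerase, differed by 0.17 (SE 0.162) and Ech1, a dienoyl-CoA isomerase of both organelles, by 0.24 (SE 0.203). Ech1 had 5105 normalized counts in knockout 7 and 2440 to 3381 in the other knockouts.

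Electrons leave the dehydrogenases through Etfa and Etfb, the subunits of the electron transfer flavoprotein, and Etfdh, which hands them to ubiquinone. Etfdh had 3930, 4182, 4419 and 2657 normalized counts in floxed controls and 3267, 4383, 6535 and 4761 in knockouts, a difference of 0.30 (SE 0.206). Etfa had 2216 to 3149 in floxed controls and 2558 to 4013 in knockouts, and Etfb 330 to 466 and 346 to 572, with differences of 0.16 (SE 0.148) and 0.19 (SE 0.159). All 3 were lowest in floxed control 4 and highest in knockout 7. The subunits form a complex of equal parts, but per kb of exon the floxed control level was 349 ± 49.0 normalized counts (SD, n = 4) for Etfb, against 1574 ± 245 (SD, n = 4) for Etfa. Of the exon length of Etfb, 53.0% overlaps the annotated gene Gm45233 on the same strand, where the authors' counting could drop or split reads.

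Peroxisomal genes had a median difference of 0.22 over 12 tested genes, with 11 positive, close to the 0.21 of the 16 mitochondrial genes, of which 15 were positive. The genes of the peroxisomal cycle were uneven. Ehhadh, the bifunctional hydratase and dehydrogenase, had 348, 211, 429 and 238.2 normalized counts in floxed controls and 323, 216, 952 and 355 in knockouts. Knockout 7 had more than any other library, and the other 3 knockouts lay within the floxed control range. The difference for Ehhadh, 0.41 (SE 0.389), was -0.015 without knockout 7. Hsd17b4, the D-bifunctional protein, had 1719 to 2242 in floxed controls and 1755 to 3040 in knockouts, a difference of 0.17 (SE 0.159).

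The oxidase and the thiolases had the narrowest ranges. Acox3, an oxidase of branched chains, had 553, 598, 598 and 601 normalized counts in floxed controls and 597, 576, 684 and 585 in knockouts, with a difference of 0.052 (SE 0.0901, 95% interval -0.15 to 0.25). Acaa1a, the peroxisomal thiolase, had 562 to 688 and 556 to 674, a difference of 0.058 (SE 0.102). Scp2, which encodes a thiolase for branched chains and a lipid carrier protein, had 2386, 2425, 2531 and 2240 in floxed controls and 2297, 2856, 2711 and 2890 in knockouts, a difference of 0.16 (SE 0.0895, adjusted p = 0.748). Acox3 and Acaa1a spanned 1.24-fold and Scp2 1.29-fold over the 8 libraries, beside a median of 1.85-fold.

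Of the auxiliary peroxisomal enzymes, Pecr, a trans-2-enoyl-CoA reductase, had 176, 221, 204 and 191 normalized counts in floxed controls and 224, 268, 216 and 248 in knockouts. Knockouts 5, 6 and 8 exceeded every floxed control, so knockout 5, low in most of the genes, was not low here. The difference for Pecr, 0.27 (SE 0.125, adjusted p = 0.746), was 0.32 without knockout 7. Decr2, the peroxisomal dienoyl-CoA reductase, had 106 in knockout 7 and 54.5 to 58.6 in the other knockouts, within the 47.2 to 62.6 of the floxed controls.

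Branched and 3-methyl chains need extra enzymes. Phyh, the first enzyme of alpha-oxidation of phytanic acid, had 4013, 4088, 3989 and 2879 normalized counts in floxed controls and 3550, 4048, 5217 and 5643 in knockouts, with knockouts 7 and 8 above the rest and a difference of 0.29 (SE 0.16, adjusted p = 0.748). Amacr, a racemase of both organelles, had 315 to 392 in floxed controls and 258, 491, 440 and 467 in knockouts 5 to 8, so that knockout 5 was the lowest and the other 3 the highest (difference 0.16, SE 0.188). Hacl1, the lyase of alpha-oxidation, was near the filter with 13.9 to 19.6 and 6.05 to 28.9 (difference -0.35, SE 0.445), and 31.1% of its exon length overlaps the annotated gene Gm49387 on the same strand.

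Membrane proteins of the peroxisome all had positive differences. Abcd3, a half-transporter for branched and dicarboxylic acyl-CoA, had 2109, 2142, 2315 and 1987 normalized counts in floxed controls and 2014, 2373, 2866 and 2715 in knockouts (difference 0.21, SE 0.111, adjusted p = 0.746). Abcd2, a half-transporter for very-long-chain acyl-CoA, had 1036, 1329, 1364 and 1316 in floxed controls and 1439, 1593, 1183 and 1729 in knockouts. In Abcd2 knockout 7 was the lowest knockout and floxed control 1 the lowest control, unlike in most of the genes. The difference for Abcd2 was 0.23 (SE 0.13, adjusted p = 0.748) and 0.34 without knockout 7. Pex11a, a factor of peroxisome division, had 207, 188, 246 and 145 in floxed controls and 174, 240, 379 and 267 in knockouts, a difference of 0.40 (SE 0.231, adjusted p = 0.749).

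**Figure D3:**
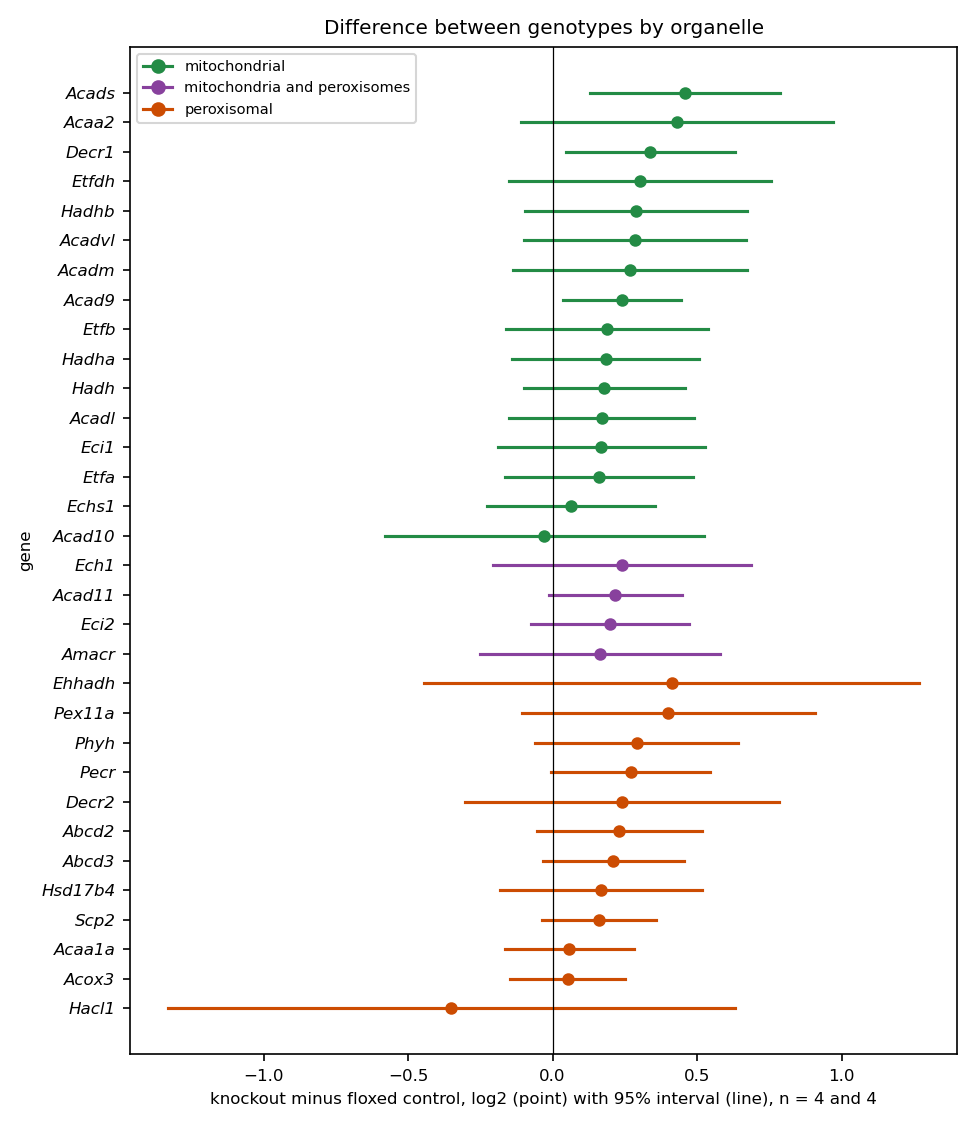
Points are differences between 4 knockouts and 4 floxed controls on the log2 scale and lines their 95% intervals, by organelle. The intervals of Acads, Decr1 and Acad9 lie above 0 before adjustment and all others include it; Acad10, just below 0 here, is just above it when libraries are scaled to the same total.

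By organelle, the mitochondrial genes followed floxed control 4 and knockout 7 more closely than the peroxisomal genes. Floxed control 4 was lowest in 15 of the 16 mitochondrial genes and in 5 of the 12 peroxisomal genes, and knockout 7 highest in 14 and 7. Without these libraries the mitochondrial median was -0.0071 with 7 positive, and the peroxisomal median was 0.041 with 8 positive. As this pair was picked for extremes that lay mainly in mitochondrial genes, its removal favoured a lower mitochondrial median and is no test. Mean log2 values of the peroxisomal genes were 8.90, 8.94, 9.10 and 8.82 in floxed controls and 8.88, 9.02, 9.47 and 9.09 in knockouts, and those of the mitochondrial genes 11.05, 11.12, 11.13 and 10.69 and 10.93, 11.22, 11.52 and 11.25. Only knockout 7 had a peroxisomal mean above every floxed control, while knockouts 6, 7 and 8 had such a mitochondrial mean. The mean difference was 0.18 for the peroxisomal and 0.23 for the mitochondrial genes, in the reverse order of the medians over all libraries. Within a library the peroxisomal mean minus the mitochondrial mean was -2.06 ± 0.144 (SD, n = 4) for floxed controls, against -2.11 ± 0.080 (SD, n = 4) for knockouts. The shift between organelles, -0.052, was smaller than either spread. The difference between the organelles was described and not tested.

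**Figure D4:**
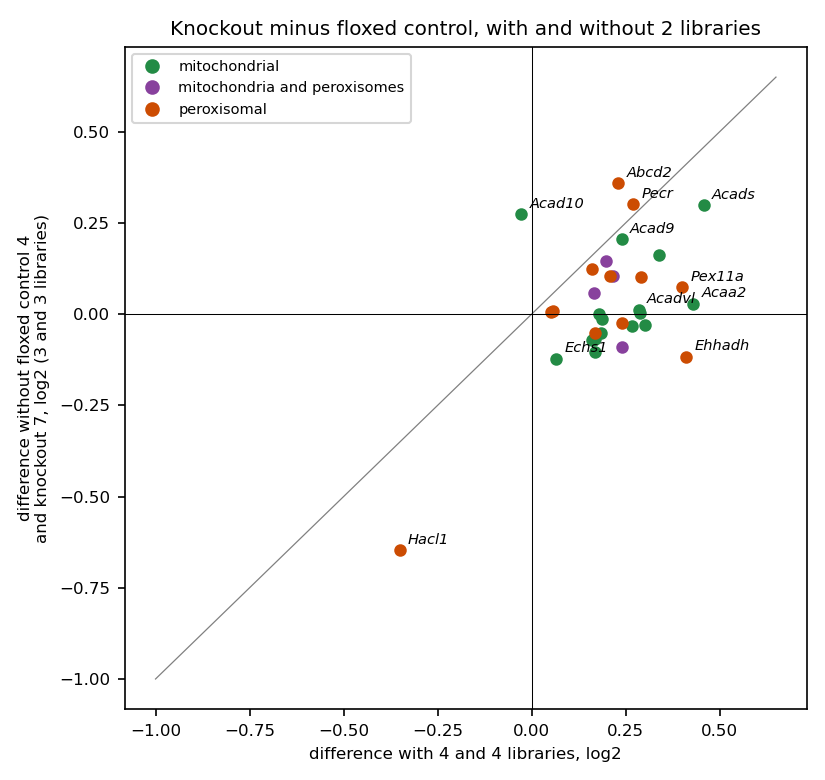
Each point is a gene, with the difference over all 8 libraries on the x axis and that without floxed control 4 and knockout 7 (picked as the extremes of these genes) on the y axis, both log2; the diagonal marks equal values. Most points fall towards 0 on the y axis (median 0.0083, 18 of 32 positive), while Acads, Pecr and Abcd2 stay near or above 0.30. That choice must lower genes in which the pair held both extremes.

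Genes of the respiratory chain were compared because they share the mitochondrion and the oxidative fibres. All 74 had a positive difference, beside 50.6% of all tested genes, and 19 had an unadjusted p under 0.05, beside 6.16% (2.47% in the positive direction). The 74 nuclear genes of oxidative phosphorylation had mean log2 values of 11.95, 11.97, 11.96 and 11.59 in floxed controls and 11.77, 12.26, 12.23 and 12.23 in knockouts. Subtracting that mean from each gene in each library left 11 of the 32 with a positive and 21 with a negative difference, with a median of -0.041. The range over the 8 libraries narrowed in 24 of the 32, from a median of 0.89 to 0.52 on the log2 scale, as the oxidation and respiratory genes were low together in floxed control 4 and knockout 5. Knockout 7 still had the highest relative value in 18 of the 32. For Acaa2 this relative value was -0.19 in knockout 7 and -0.87 to -0.74 in the other knockouts, and for Acads, which had the largest positive difference left (0.20), it was -1.96 to -1.63 in floxed controls and -1.64 to -1.47 in knockouts.

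Levels between genes were compared per kb of annotated exon. In floxed controls Acadl had 3034 ± 507 (SD, n = 4) normalized counts per kb and Acadvl 2854 ± 536 (SD, n = 4), followed by Phyh at 1977 ± 305 (SD, n = 4), Etfa at 1574 ± 245 (SD, n = 4), Acaa2 at 1424 ± 370 (SD, n = 4) and Acadm at 1324 ± 283 (SD, n = 4). Within libraries, Acadl was above Acadvl in 4 of 4 floxed controls but in only 1 of 4 knockouts, and Phyh was above Etfa in 4 of 4 of each group. Etfa, Acaa2 and Acadm did not keep 1 order in every floxed control. Acads, at 485 ± 76.5 (SD, n = 4), was lower than Acadm, Acadl and Acadvl in every floxed control. At the low end were Acox3 at 51.0 ± 1.99 (SD, n = 4), Decr2 at 21.0 ± 2.87 (SD, n = 4), Acad10 at 9.25 ± 2.33 (SD, n = 4) and Hacl1 at 3.35 ± 0.469 (SD, n = 4). Dividing by the longest coding transcript instead put Acadvl first and Acadl second, and moved Hadhb from place 9 to 3 and Echs1 from 20 to 13, since their annotated exons include long stretches outside that transcript.

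**Figure D5:**
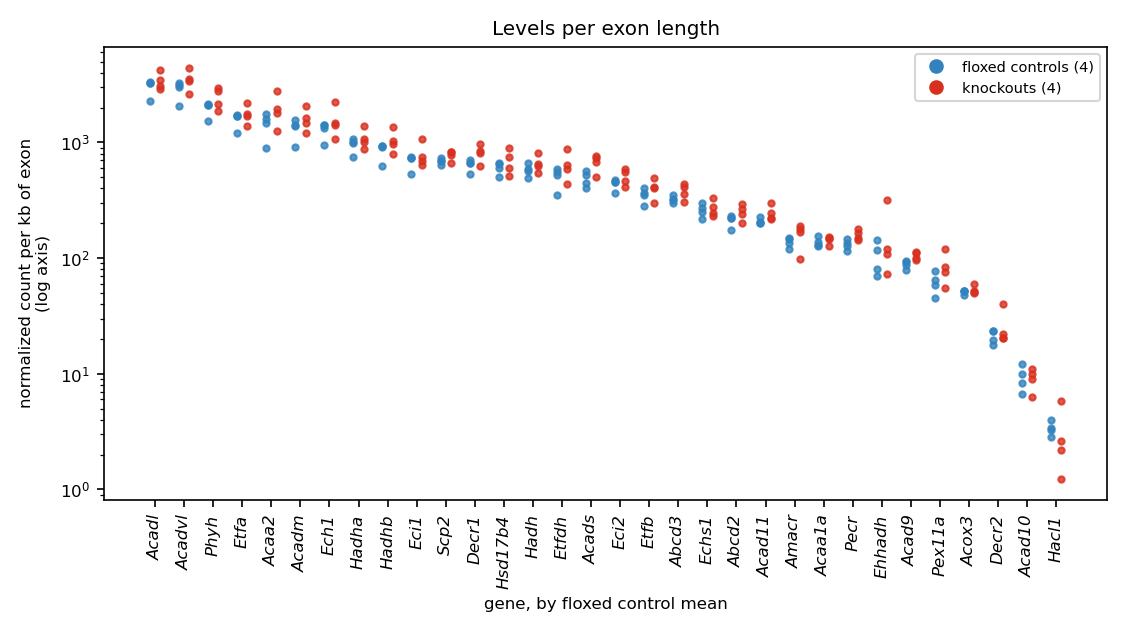
Points are libraries: normalized counts per kb of annotated exon on a log axis, for the 32 tested genes ordered by their floxed control mean. Mean floxed control levels run from 3034 for Acadl to 3.35 for Hacl1, and the knockouts keep nearly that order, no gene moving by more than 2 places; Acadvl, second here, is first in knockouts and first by longest transcript.

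Of 41 tested other genes of the same pathways (carnitine shuttle, further peroxisomal enzymes, peroxins and related mitochondrial enzymes), 33 had positive differences, beside 50.6% of all tested genes, with a median of 0.085, and 0 were called by limma. At an unadjusted p under 0.05 there were 2, both positive, a share no higher than the 6.16% of all tested genes in either direction. In the positive direction alone the share of all tested genes was 2.47%. Every knockout lay above every floxed control in both, as in 1.13% of all tested genes. Crot, the peroxisomal carnitine octanoyltransferase, had 1182, 1228, 1312 and 1333 normalized counts in floxed controls and 1355, 1771, 1395 and 1716 in knockouts (0.29, SE 0.104, adjusted p = 0.746). Acad8, a dehydrogenase of valine breakdown, had 677 to 826 and 828 to 974 (0.21, SE 0.0931, adjusted p = 0.746). Cpt2, the inner carnitine palmitoyltransferase, differed by 0.31 (SE 0.151) and Slc25a17, a peroxisomal cofactor carrier, by 0.22 (SE 0.123).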

How the data were processed

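Total RNA was made into stranded TruSeq libraries, per the labels' protocols. Per the submitters' processing notes, tools were STAR, HTSeq, DESeq2, cutadapt and FastQC (no versions) and the build GRCm38; the strand setting is not given. The deposited values are log2(n + 1), n being a count over a size factor: up to 200 reads, 100% of values gave a read number within 0.1 of a whole one, hence the read totals. The comparison of 4 knockouts with 4 floxed controls used limma 3.58.1 in R 4.3.3 (eBayes with trend, mean normalized count of at least 10, Benjamini-Hochberg over 13141 genes, call at adjusted p under 0.05), a script tested on simulated data. No source names separate litters or cultures beyond mouse numbers, so p-values measure the spread between these samples. Genes named include the 33, Acot2, the 4 other pathway genes of smallest p, and some markers. A named marker had a library that stood apart, an unadjusted p under 0.05, or most of its list's sum. The genes and lists were chosen with earlier results of these data known. Promoter windows and the 272 bases between Hadha and Hadhb are from RefSeq (GRCm38.p6). Exon lengths, overlaps and other positions are from GENCODE M21 (GRCm38), matched by symbol for all 33. Organelle, chain-length and role classes were assigned by hand from general knowledge. Alternatives covered pseudocount, filter, scaling, fit, mouse number range and left-out libraries.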

Additional observations from a re-analysis of the deposited data

Results flagged for a closer look

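In 11 of 66 gene and group pairs, 1 of the 4 libraries stood far from the other 3, by Dixon's ratio of its gap to the group's whole range; chance flags about 1 in 20 groups. Of these, 6 were low values in floxed control 4: Acadl (ratio 0.928, log2 12.16), Hadhb (0.943), Eci1 (0.980, log2 10.16), Ech1 (0.835, log2 11.09), Etfa (0.932, log2 11.11) and Phyh (0.930, log2 11.49). They share that library, so they are not separate events. In floxed control 1, Acad11 was high (0.832, log2 11.12), and Acox3 (0.941, log2 9.11) and Abcd2 (0.871, log2 10.02) were low. In the knockouts, Decr2 was high in knockout 7 (0.891, log2 6.74) and Amacr low in knockout 5 (0.830, log2 8.02).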

How the results depend on the processing

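Over 20 alternatives, 0 of the 32 genes gained or lost a call and 17 kept their sign in all; 15 changed sign in at least 1. The removal of floxed control 4 and knockout 7 together was chosen after seeing that they were the extremes. It had to lower the differences of genes in which they held both extremes, and is no test. Then 18 genes were positive (median 0.0083), with 7 of the mitochondrial genes (median -0.0071), 3 long-chain genes (0.0043) and 2 medium- and short-chain genes (-0.00057). In that setting 1 gene had an unadjusted p under 0.05, beside 3.01% of all tested genes. There Acad10 turned positive (0.27), and 13 genes turned negative: Acadl (-0.067), Acadm (-0.031), Decr2 (-0.023), Ech1 (-0.089), Echs1 (-0.12), Eci1 (-0.10), Ehhadh (-0.12), Etfa (-0.072), Etfb (-0.014), Etfdh (-0.030), Hadh (-0.00057), Hadha (-0.052) and Hsd17b4 (-0.051). The difference rose in Abcd2 (from 0.23 to 0.36) and Pecr (from 0.27 to 0.30), and moved from -0.35 to -0.65 in Hacl1. How far the choice of libraries accounts for these shifts was not tested. Genes at an unadjusted p under 0.05 numbered 5 with libraries scaled to the same total, beside 5.62% of all tested genes. They numbered 8 with array weights (beside 11.2%) and 10 without floxed control 4 and knockout 5 (beside 11.5%). Acad10 was 0.012 with libraries scaled to the same total and 0.057 without floxed control 4 and knockout 5. Leaving out each library in turn gave 1 to 15 genes at an unadjusted p under 0.05, beside 2.79% to 16.7% of all tested genes. The differences then ran from -0.17 to 0.13 for Acad10 and -0.0036 to 0.079 for Acox3. They ran from -0.038 to 0.14 for Echs1 and -0.015 to 0.70 for Ehhadh. Acot2 (-2.30) passed adjustment only with no filter. No paired analysis was possible because replicate numbers run from 1 to 8 and the groups share none. The planned edgeR and DESeq2 fits were not run, since the deposited unit is log2; voom on the recovered reads was. Hacl1, Acad10 and Decr2 are limited by low counts.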
